A study of Mus musculus with 6 samples.

Results

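The genes of the cytosolic ribosomal proteins were followed across maps of open chromatin made from cultured neural stem cells. The cells came from the subependymal zone of adult mice, a stem cell niche along the lateral ventricles of the brain. Members were the protein-coding genes on chromosomes 1 to 19 of the GENCODE M21 annotation whose symbol was Rpl or Rps followed by a number and at most one a or x, with Rplp0, Rplp1, Rplp2 and Rpsa added. The rule took 72 of 20807 protein-coding genes, of which 40 encode proteins of the large subunit, 29 proteins of the small subunit and 3 the P proteins of the ribosomal stalk. The rule used symbols only and no measured value. Rpl10, Rpl36a, Rpl39 and Rps4x lie on the X chromosome and were outside it.

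All cultures came from mice 10 weeks of age that carried a CRISPR-Cas9 mutation of Srr2, an enhancer of Sox2, on both alleles (Srr2del/del). Proliferating cultures (PROLIF) were kept for 2 days in vitro with mitogens, and early differentiating cultures (DIFF) had the same 2 days followed by 1 day without mitogens in medium with 2% serum. Each state had 3 libraries, numbered 1, 2 and 4. Both states carry the mutation, and no wild-type cultures entered the analysis, so every contrast is of DIFF against PROLIF in mutant cells. Which founder strain a library came from is not given in the labels. Loss of mitogens, addition of serum and time in culture cannot be told apart. The assay was ATAC-seq, where a transposase cuts open DNA and tags it for sequencing. A peak is an interval in which a library's cut sites passed its own background. In such bulk libraries, a weaker peak in every cell and an open site in fewer cells cannot be told apart.

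Ribosomal proteins assemble with ribosomal RNA into the large and the small subunit, and a growing cell needs every one of them in similar amounts. Their mRNAs are among the most abundant of a proliferating cell. They typically begin with a C followed by an unbroken run of pyrimidines, the terminal oligopyrimidine (TOP) motif, through which mTOR signalling controls their translation. In the subependymal zone, ribosome production and protein synthesis are known to differ between quiescent stem cells, activated stem cells and their progeny.

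The lists held from 60006 to 88039 peaks. The local background, in overlapping read fragments, was solved at the called peaks. Its percentile 1, a low value of each library, was between 2.85 and 3.63 in 5 libraries and 6.01 in DIFF replicate 4. Read depth itself was not measured. The labelled cell type was checked on promoter peaks of marker genes. All 8 neural stem and progenitor markers had one in all 6 libraries and none of 5 microglial markers had one in any library. Of 4 endothelial and 4 oligodendrocyte markers, none had one in all 6, while 3 of 4 neuronal markers did. Among the oligodendrocyte markers, Mbp had one in 5 libraries, Mog in 1, and Sox10 and Mag in 0. Pecam1, an endothelial marker, had a promoter peak in each of the 3 PROLIF libraries but not in DIFF, and its part in the results was not tested.

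Every ribosomal protein gene was accessible in both states. All 72 members had a peak within 1 kb of an annotated transcript start in each of the 6 libraries, against 62.2% of all protein-coding genes. None had its peak in one state only, a pattern found in 0.163% of all genes for PROLIF and 0.298% for DIFF. All 72 kept a peak in every library when only peaks within 500 bp of a start, or only peaks with a q of 0.001 or lower, were counted. Pseudogenes, most of them copies made through reverse transcription of the mRNA and so without the promoter, were rarely accessible. Of 259 ribosomal protein pseudogenes on the same chromosomes, 242 had no peak within 1 kb of their start in any library, and between 5 and 15 had one in a given library. The 2 with a peak in all 6 were Rpl29-ps2, 160 bp from the start of a protein-coding gene, and Rpl34-ps1.

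The members sat on 18 chromosomes, with 14 on chromosome 7. They were short genes, with a median length of 3328.5 bp against 17629 bp for all protein-coding genes, and 27 of them held 54 small nucleolar RNA genes within their bounds on the same strand. Their first exons were also short. The median first exon of the chosen transcript was 93.5 bp in the members and 213 bp in all genes, and the median 5′ untranslated region was 94 and 150 bp. The position 250 bp downstream of the start fell in the first intron in 50 members and in the first exon in 12.

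Sequences around the chosen starts, from the RefSeq GRCm38.p6 genome, were compared between the members and all protein-coding genes. The chosen start was that of the protein-coding transcript with the best APPRIS tag, then the best support level. A run of at least 8 pyrimidines on the sense strand that touched the stretch from 5 bp before to 10 bp after the start was found in 23 of 72 members, a share of 31.9% against 2289 of 20722 protein-coding genes, or 11.05%. The start base itself was a C in 25 members, or 34.7%, against 17.7% of all genes. These shares depend on how exactly the annotation places the start. The 30 bases centred on the start are shown for genes with long runs and, for contrast, for genes without one, with the run in capitals and the start as base 16.
Rpl37 (chr15:5116630-5116659, plus strand): tggcgggggtgCTTTCTCTTCCggtctctt
Rpl31 (chr1:39367827-39367856, plus strand): gccacaCCTCTTCCTCCTCgcctccccgtg
Rpl22 (chr4:152325852-152325881, plus strand): cgCCCCCCTCCCTTTCTgcctcctctgccg
Rpl4 (chr9:64173360-64173389, plus strand): agtgacaagTCTTTCCTTTTCCTgtgggag
Rpl8 (chr15:76904063-76904092, plus strand): gctgcgttgacccgtctaTTTCCTCTTTCg
Rpl36 (chr17:56613401-56613430, plus strand): ctgcgcggtgccgTTCTTCCTgtcccggcc
Rplp1 (chr9:61914528-61914557, minus strand): cgcgcaggcgtatatgaTCTTTTCCTCagc
Rps29 (chr12:69159172-69159201, minus strand): agcacgcggaccaatgttgtcgcacggcgt
Rps6 (chr4:86857398-86857427, minus strand): gccggctgttctcgcgagaacttagagcgc
Rpl10a (chr17:28328553-28328582, plus strand): ctatttgagcgcatgcgcaaagcgctctgc
Rpl37 and Rpl31, whose peaks ranked among the highest, and Rpl4, Rpl8 and Rpl36, whose peaks ranked among the lowest, all carried a run, while Rps29, another of the highest, did not.

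Promoter motifs were searched on both strands from 250 bp before to 50 bp after the chosen start. TCTCGCG, a core bound by ZBTB33 and BANP, lay in 16 of 72 member promoters, or 22.2%, against 3.44% of all protein-coding promoters. None of the 9 motifs searched contains another, and CACGTG reads alike on both strands. In Rps6 TCTCGCG spans the start in the sequence printed for that gene. CCGGAAG, the ETS core, lay in 23 members, or 31.9%, against 11.4%. GCATGCG (NRF1) lay in 11.1% against 4.44% and AAGATGG (YY1) in 12.5% against 6.35%. For the other motifs the shares were closer, with GGGCGG (SP/KLF) in 48.6% against 46.2%, CACGTG (E-box) in 12.5% against 7.77%, CCAAT (NFY) in 30.6% against 38.2%, TATAAA in 11.1% against 12.7% and TGACTCA (AP-1) in 4.17% against 4.42%. The members were also rich in CpG. The ratio of observed to expected CpG had a median of 0.835 in the 250 bp before the start, against 0.534 for all genes, and 0.846 in the 600 bp from the start on, against 0.592. The background here was all 20722 protein-coding genes, with or without a promoter peak, and it was not matched for CpG. These counts describe letters in the reference and not binding.

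The members formed a stable order of peak strength. Strength was taken as the percentile of a promoter's strongest peak within its own list, ranked by the −log10 p of the authors' peak caller, so 100 is the strongest peak of a library. Averaged over the 6 libraries, members ranged from 47.1 to 99.4 with a median of 87.7. Between any pair of libraries the order of the 72 genes correlated at a Spearman coefficient of 0.918 to 0.949 over 15 pairs, a description across genes that share each library. Summits lay within 100 bp of the chosen start in 57 of 72 members, or 79.2%, against 51.1% of the 12948 protein-coding genes with a promoter peak in all libraries.

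At the top stood Rpl37 and Rpl15, 2 proteins of the large subunit, with Rps29 of the small subunit and Rpl31 of the large close behind. Rpl37 (chromosome 15, 5116645 to 5119140, plus strand) had percentiles of 99.6, 99.01 and 98.9 in PROLIF replicates 1, 2 and 4 and 99.7, 99.7 and 99.7 in DIFF. Its peaks were from 900 to 1160 bp wide. Rpl15 shares its peak with the gene Nkiras1 and reached 99.7, 99.02 and 99.3 in PROLIF and 99.01, 99.7 and 99.5 in DIFF. The states were narrowly apart for Rpl37 and overlapped for Rpl15, both near the ceiling of the scale.

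At the bottom stood Rpl4, Rpl19, Rpl8, Rpl38 and Rpl36. Rpl4, which lines the exit tunnel of the ribosome, had percentiles of 55.6, 37.5 and 31.0 in PROLIF and 53.9, 53.7 and 50.7 in DIFF. Rpl19 had 43.3, 68.0 and 44.7 in PROLIF and 63.5, 63.2 and 75.2 in DIFF. Rpl8, which lies next to the peptidyl transferase centre, had 61.4, 60.3 and 17.2 in PROLIF and 66.2, 79.3 and 75.5 in DIFF. Every DIFF library was thus above every PROLIF library for Rpl8, whereas the states overlapped for Rpl4 and Rpl19. The value of 17.2 for Rpl8 in PROLIF replicate 4 was the lowest of any member in any library, and that peak still had a −log10 q of 3.75.

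The peaks of the ribosomal protein genes ranked higher within their lists in DIFF. The median percentile of the 72 members was 87.2, 84.2 and 83.3 in PROLIF replicates 1, 2 and 4 and 88.8, 88.4 and 91.4 in DIFF. The mean was higher in DIFF in 69 of 72 members, against 76.9% of all promoters. In 39 members every DIFF library was above every PROLIF library and in 0 every DIFF library was below, whereas 26.6% of all promoters with a peak in all 6 libraries were above and 4.4% below. Promoters as a whole thus tended to rank higher in DIFF, with a larger share among the members. Other lists of the translation machinery, set beside the members below, rose in rank as well. Among the strongest 10000 peaks of a list were 31, 35 and 36 members in PROLIF, or 43.1% to 50% of the 72, and 46, 46 and 45 in DIFF, or 62.5% to 63.9%. Of all protein-coding genes 30.98% to 31.7% were among them in PROLIF and 34.3% to 35% in DIFF. A percentile also depends on how many weak peaks a list holds. With every list shortened to the 60006 peaks of the shortest, the median percentile was 82.3 to 83.3 in PROLIF and 86.3 to 87.4 in DIFF for the members, and 83.7 to 84.2 and 85.8 to 86.2 for all promoters. In 32 members every DIFF library was then above every PROLIF library and in 0 below, against 25.6% and 8.4% of all promoters.

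The main limma fit of peak strength was on fold enrichment, given below, where 0 of 72 members passed. The percentile had been planned as a description only. As an alternative to fold enrichment, the rank was tested gene by gene with limma on the log2 odds of the percentile, across 12948 promoters. Of the 72 members, 17 passed a Benjamini-Hochberg adjusted p of 0.05 as higher in DIFF and 0 as lower. The background was 8.29% higher and 1.44% lower. The median change was 0.73 in the members and 0.44 in all promoters on this scale. They included, in order of p, Rpl12, Rpl32, Rps15, Rpl30, Rpl10a, Rps19, Rpl27, Rps13, Rps7, Rpl8, Rpl18, Rps26, Rps24, Rps21, Rpl17 and Rps18. Rpl12, part of the base of the stalk, had percentiles of 64.2, 61.2 and 56.1 in PROLIF and 84.1, 82.0 and 87.1 in DIFF, a change of 1.83 ± 0.39 (SE) with an adjusted p of 0.00203 in limma. Rpl32 had 54.3, 72.5 and 60.2 against 77.9, 82.8 and 90.6, with a change of 1.70 ± 0.40 and an adjusted p of 0.00550 in limma. Both groups of values were apart for each gene, with no DIFF library as low as any PROLIF library. On lists of equal length, a version added after these results were seen, 15 of the 17 passed as higher in limma, all but Rpl8 and Rps18, and 0 members as lower, against 7.83% and 2.82% of all promoters. The median change was then 0.59 in the members and 0.28 in all promoters.

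The deposited fold enrichment, which relates a peak to its local background, gave fewer calls once the libraries were put on a common scale by quantile normalisation. In limma 0 of 72 members passed, against 0.61% of all promoters higher and 1.16% lower in DIFF. At an unadjusted p under 0.05, 9 members were higher and 0 lower, against 7.89% and 7.61%. Rpl12, whose peak also lies at the start of Lrsam1, had the smallest adjusted p of the members in limma, 0.0502, with a log2 change of 0.48 ± 0.12 (SE). With the replicate number as a block, 2 members passed as higher in limma, Rpl32 with an adjusted p of 0.0104 and Rpl12 with 0.0294. The share of all promoters called in that fit is not given here, so the count is not read as a result about the members.

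**Figure D1:**
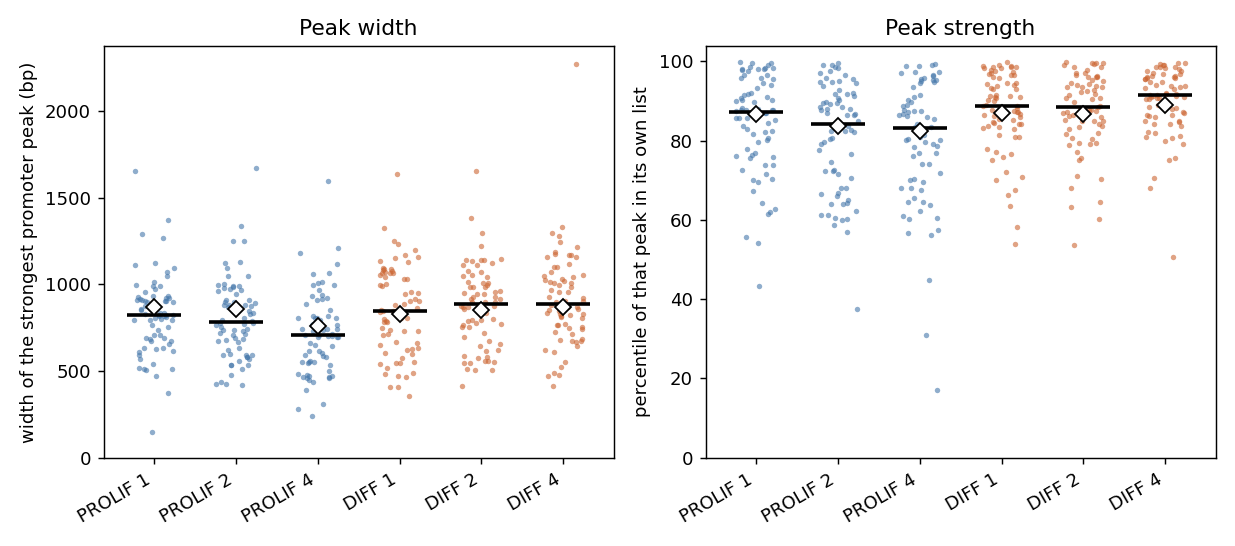
Left, width in bp of the strongest promoter peak of each of the 72 ribosomal protein genes, and right, its percentile within the list, by library. Points are genes, black bars the median of the members and white diamonds the median of all protein-coding genes with a promoter peak in that library. In width the bars lie under the diamonds in the 3 PROLIF libraries and above them in the 3 DIFF libraries.

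Promoter peaks of the ribosomal protein genes were wider in DIFF. The median width over the 72 members was 824.5, 784 and 709.5 bp in PROLIF replicates 1, 2 and 4 and 848.5, 887 and 887 bp in DIFF, or 773 ± 58.3 bp against 874 ± 22.2 bp (SD, n = 3 libraries each). The 12948 promoters with a peak in all libraries had medians of 774 to 897 bp in PROLIF and 854 to 901 bp in DIFF. The members' medians did not overlap between the states, and those of all promoters did. The mean width was larger in DIFF in 66 of 72 members, against 58.3% of all promoters. In 20 members every DIFF peak was wider than every PROLIF peak, a share of 27.8% against 9.42% of all promoters, and in 2 every DIFF peak was narrower, against 5.66%.

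No member passed a test of its own width. In limma on log2 width, 0 of 72 members passed an adjusted p of 0.05, as did 0.0309% of all promoters higher and 0.0618% lower in DIFF. At an unadjusted p under 0.05 there were 13 wider members and 1 narrower, against 5.33% and 3.16%. The smallest adjusted p of a member was 0.144, for Rpl10a. Width varied between libraries as much as elsewhere, with a median coefficient of variation of 13.6% in the members and 12.9% in all promoters.

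The added width lay downstream of the start, inside the genes. For each peak the reach was measured from the chosen start to its downstream and its upstream edge. The median downstream reach of the members was 439.5, 416 and 372 bp in PROLIF replicates 1, 2 and 4 and 500.5, 506 and 518.5 bp in DIFF. The median upstream reach was 361, 342 and 329 bp in PROLIF and 332, 345.5 and 376 bp in DIFF. The downstream medians were apart by 99.2 bp on average with no overlap between the states, and the upstream medians by 7.17 bp with overlap. Over all promoters the downstream medians were 434 to 500 bp in PROLIF and 480 to 497 bp in DIFF.

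Member by member the same asymmetry appeared. In 23 of 72 members every DIFF peak reached further downstream than every PROLIF peak, against 8.99% of all promoters, and in 2 every DIFF peak fell short, against 5.95%. Upstream there were 4 such members (Rpl27a, Rpl28, Rps2 and Rps27a) and 2 of the opposite kind (Rpl35a and Rps20), against 8.31% and 6.15%. The mean downstream reach was larger in DIFF in 63 members, against 55.7% of all promoters. The median change per gene was 70 bp downstream and 5.83 bp upstream in the members, against 9 bp and 4.67 bp over all promoters. The large and the small subunit gave like counts, with 13 of 40 and 10 of 29 members further downstream in every DIFF library.

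**Figure D2:**
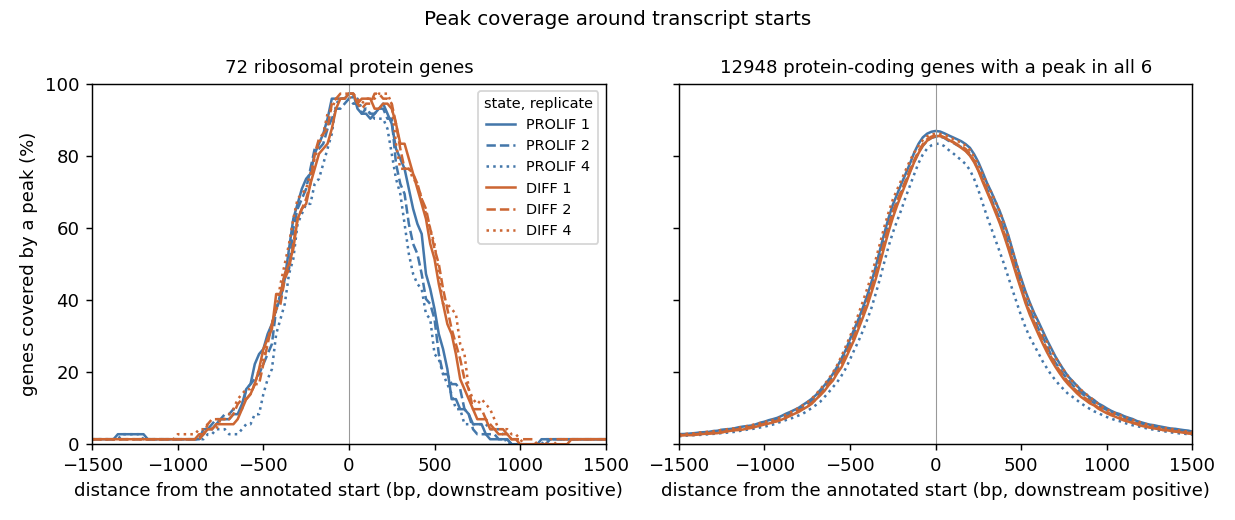
Share of genes covered by any peak at each distance from the chosen start, in bp, downstream positive, for the 72 ribosomal protein genes (left) and the 12948 protein-coding genes with a promoter peak in all libraries (right). Lines are libraries, PROLIF blue and DIFF orange. On the left the colours part between 350 and 800 bp downstream and at some distances nearer the start, such as 250 bp. On the right they overlap.

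The same was seen without choosing a strongest peak. At 500 bp downstream of the start, between 25% and 37.5% of the members were covered by a peak in PROLIF libraries and between 51.4% and 55.6% in DIFF libraries. At 500 bp upstream the ranges overlapped, at 13.9% to 26.4% and 22.2% to 26.4%. For all promoters the ranges at 500 bp downstream overlapped as well, at 35.5% to 45.9% and 42.8% to 45.5%. At the start itself 95.8% to 97.2% of members were covered in either state. Counting all bases under any peak in the 1000 bp downstream, 23 members were higher in every DIFF library and 1 lower, against 7.94% and 5% of all promoters. In the 1000 bp upstream these counts were 4 and 2, against 7.37% and 5.07%. At that position of 500 bp downstream, 58 of the 72 members were in an intron, or 80.6% against 78.1% of all protein-coding genes, and 40 in the first intron, or 55.6% against 73.96%.

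Local background and list length also differed between the libraries. By number of peaks, DIFF replicate 4 had the longest list and PROLIF replicate 4 the shortest. With each of the 6 libraries left out in turn, the difference of the members' median downstream reach between the states lay between 80.6 bp, without PROLIF replicate 4, and 114.3 bp. Dropping a library loosens the condition of no overlap for every gene. Without DIFF replicate 4 the members further downstream numbered 26, against 12.4% of all promoters, and without PROLIF replicate 4 they numbered 29, against 11.4%.

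**Figure D3:**
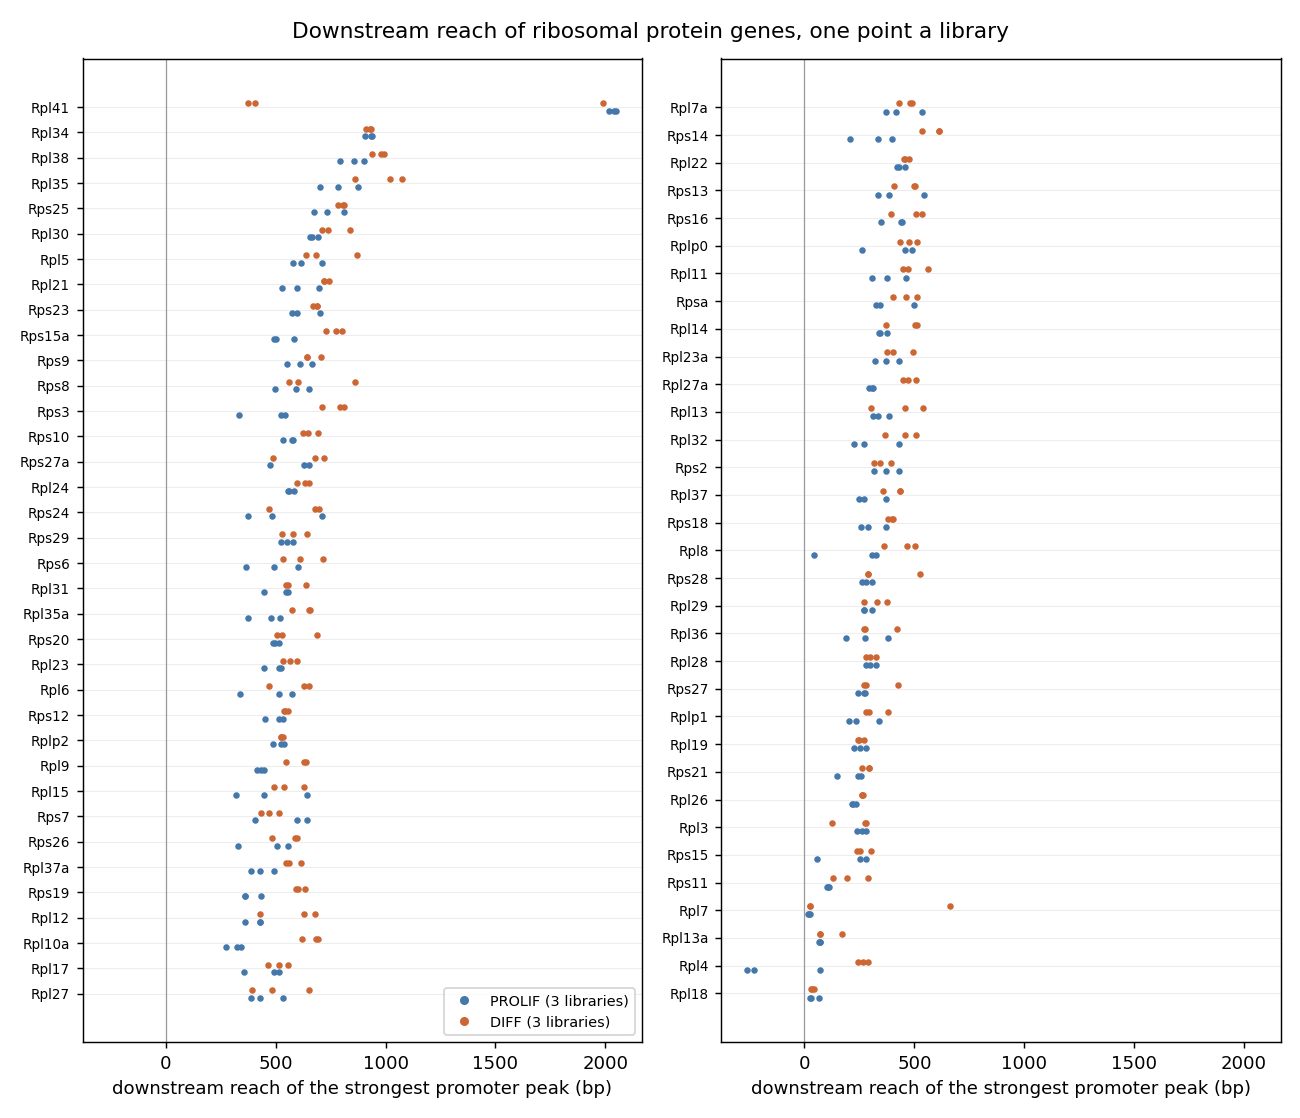
Downstream reach in bp of the strongest promoter peak in the members shown, ordered by their mean. Each point is 1 library, PROLIF blue and DIFF orange, and the vertical line marks the chosen start. In Rpl10a, Rps19 and Rpl27a all orange points lie to the right of all blue ones, and in Rpl41 all lie to the left.

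Rpl10a, a protein of the large subunit, was the one member called for its downstream edge. Rpl10a lies on chromosome 17 from 28328471 to 28331033 on the plus strand. Its downstream reach was 325, 343 and 273 bp in PROLIF replicates 1, 2 and 4 and 685, 619 and 692 bp in DIFF, while its upstream reach was 383, 444 and 421 bp and 450, 388 and 522 bp. All 3 DIFF values of the downstream reach were above all 3 PROLIF values, and the upstream values overlapped. In limma on downstream reach over 12948 promoters the change was 351.7 ± 31.9 bp (SE) with an adjusted p of 0.0152, the only one of 72 members to pass as higher, with 0 lower, against 0.548% and 0.502% of all promoters. At an unadjusted p under 0.05 there were 15 members higher and 1 lower, against 4.87% and 3.16%. This fit was added after the widths had been seen. In limma its adjusted p was 0.335 with the replicate number as a block, 0.0623 without PROLIF replicate 1, 0.0533 without PROLIF replicate 2, 0.0708 without DIFF replicate 1 and 0.0744 without DIFF replicate 4. It was 0.0612 on the bases covered by any peak, where Rpl10a had 385 bp in PROLIF replicate 4, which held a second peak apart from the strongest.

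Rps19, the gene most often mutated in Diamond-Blackfan anaemia, and Rpl27a had the next smallest adjusted p values for this edge, 0.0539 and 0.0561 in limma. Rps19 (chromosome 7, 24884371 to 24889806, plus strand) reached 432, 362 and 360 bp downstream in PROLIF and 633, 593 and 600 bp in DIFF. Rpl27a reached 309, 292 and 310 bp in PROLIF and 506, 447 and 473 bp in DIFF. For both genes the states were apart, but neither passed the threshold. The stretch covered by the strongest peak in all DIFF libraries and in no PROLIF library is shown for Rpl10a and, chosen after its values were seen, for Rps19, with exon bases in capitals.
Rpl10a (chr17:28328912-28329187, plus strand): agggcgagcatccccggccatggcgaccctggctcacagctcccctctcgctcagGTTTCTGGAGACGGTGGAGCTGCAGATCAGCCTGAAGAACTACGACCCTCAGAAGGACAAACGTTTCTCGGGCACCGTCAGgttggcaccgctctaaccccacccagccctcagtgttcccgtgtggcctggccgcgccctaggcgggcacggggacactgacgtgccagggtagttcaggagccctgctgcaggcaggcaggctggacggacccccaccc
Rps19 (chr7:24884804-24884964, plus strand): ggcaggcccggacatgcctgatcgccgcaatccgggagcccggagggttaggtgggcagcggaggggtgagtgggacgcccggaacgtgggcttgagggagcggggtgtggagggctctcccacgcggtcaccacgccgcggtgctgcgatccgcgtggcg
The stretch of Rpl10a ran from 344 to 619 bp downstream of the chosen start and held 81 bases of the third exon between intron bases. Only strongest peaks set it, so the second peak of Rpl10a in PROLIF replicate 4 may cover part of it. The stretch of Rps19 ran from 433 to 593 bp downstream, all within the first intron. Their GC contents were 66.3% and 73.3%.

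Other members with large downstream changes included Rps3 and Rps14 of the small subunit and Rpl8 of the large. Rps3, which lines the entry channel for mRNA, reached 542, 524 and 332 bp in PROLIF and 811, 792 and 712 bp in DIFF. Rps14 reached 335, 400 and 209 bp in PROLIF and 614, 614 and 533 bp in DIFF. In both genes no value of one state fell within the other, and the adjusted p in limma was 0.276 for Rps3 and 0.248 for Rps14. On the bases covered by any peak, Rps3 had 616 in PROLIF replicate 4 and Rps14 had 751 in DIFF replicate 4. The mean changes on that measure were 211.3 bp for Rps3 and 344.7 bp for Rps14, with the states still apart. Rpl8 reached 44, 326 and 306 bp in PROLIF and 504, 468 and 361 bp in DIFF, also apart, with PROLIF replicate 1 split into several short peaks.

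Rpl4 had the largest mean downstream change, 408.7 bp, and its strongest peak was not the same one in all libraries. In PROLIF replicates 2 and 4 the strongest peak ended 263 and 230 bp before the chosen start, and the peak was shared with Zwilch, while in the 3 DIFF libraries the strongest peak ran 291, 267 and 244 bp past it. On the bases covered by any peak the change of Rpl4 was 159.7 bp. Rpl4 was among 16 members whose strongest peak also lay within 1 kb of the start of another protein-coding gene. Without these 16, the median width still differed by 110.5 bp and the median downstream reach by 105.5 bp.

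The opposite direction was rare. Rpl41, which encodes the shortest ribosomal protein, reached 2018, 2041 and 2051 bp in PROLIF and 373, 406 and 1988 bp in DIFF, every DIFF value below every PROLIF value. Its strongest peak lay at its own start in DIFF replicates 1 and 2 and near Zc3h10 in the other 4 libraries. On the bases covered by any peak in the 1000 bp downstream, the mean of Rpl41 was 73.7 bp higher in DIFF. Rps7, Rpl3 and Rps2 had lower means in DIFF, with overlapping values.

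**Figure D4:**
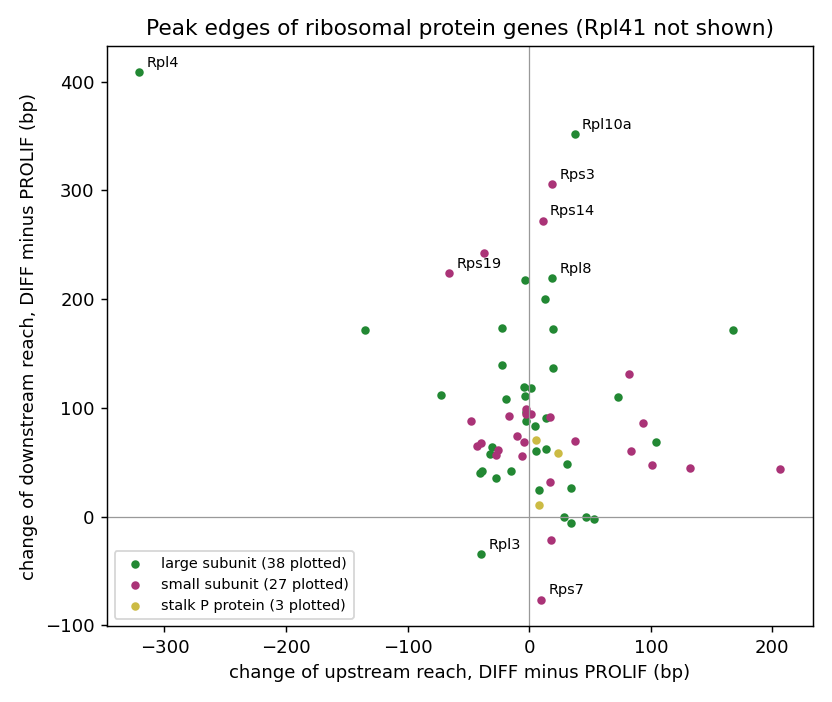
Change of the upstream reach (horizontal) against change of the downstream reach (vertical) of the strongest promoter peak, DIFF minus PROLIF in bp, for the members shown. Points are genes, coloured by subunit. Rpl41, whose strongest peak was not the same one in all libraries, is not drawn. Rpl4, for which the same holds, is drawn. Most points lie above 0 on the vertical axis and on both sides of 0 on the horizontal one.

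Some members are known for roles of their own. The stalk proteins Rplp0, Rplp1 and Rplp2, which recruit the elongation factors, had overlapping states in width and in downstream reach. Rplp2 reached 523, 539 and 487 bp downstream in PROLIF and 522, 535 and 524 bp in DIFF. Rps6, the target of the S6 kinases, reached 366, 494 and 603 bp in PROLIF and 531, 717 and 609 bp in DIFF, with overlap. Rpl5 and Rpl11, which bind MDM2 when ribosome assembly fails, had widths of 667 to 815 and 461 to 793 bp in PROLIF and of 733 to 956 and 620 to 786 bp in DIFF, again overlapping.

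Rpl34 had the second widest peaks, and its downstream edge lay between 907 and 940 bp in all 6 libraries. Rpl22, whose paralog Rpl22l1 can replace it, reached 420 to 459 bp in PROLIF and 452 to 475 bp in DIFF. Rpl13a, widely used as a reference gene for expression, was 615 to 688 bp wide in PROLIF and 547 to 788 bp in DIFF. Rps27a, which encodes ubiquitin fused to a ribosomal protein, had the largest gain on the upstream side apart from Rpl41. Its upstream reach was 363, 397 and 440 bp in PROLIF and 604, 650 and 566 bp in DIFF, with an adjusted p of 0.0979 in limma, the smallest of the members. In that fit 0 of 72 members passed, against 0.626% of all promoters higher and 0.556% lower, and at an unadjusted p under 0.05 there were 2 higher and 1 lower, against 4.6% and 3.36%. Rpsa, the small subunit protein also known as the laminin receptor precursor, overlapped between the states in width and in both reaches.

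Other genes of the translation machinery were set beside the members. The 78 nuclear genes of mitochondrial ribosomal proteins, the 32 genes of ribosome biogenesis and the 20 translation factors all had promoter peaks in all 6 libraries. Their medians of bases covered in the 1000 bp downstream of the start were compared between the states. Members had medians of 374.5 to 435.5 bp in PROLIF libraries and of 502.5 to 520.5 bp in DIFF libraries. Translation factors, among them elongation factors whose mRNAs also carry TOP motifs, had 458.5 to 499 bp in PROLIF and 547 to 648.5 bp in DIFF, again without overlap. In mitochondrial ribosomal proteins the ranges were 384 to 438 bp and 419.5 to 455 bp, and in ribosome biogenesis 357.5 to 452.5 bp and 416.5 to 461 bp, with overlap in both. The numbers of genes higher in every DIFF library were 23 of 72 members, 7 of 20 translation factors, 6 of 78 mitochondrial ribosomal proteins and 1 of 32 ribosome biogenesis genes. In that order the shares were 31.9%, 35%, 7.69% and 3.125%, against 7.94% of all promoters. These lists rose in rank too. The median percentile was 4.65 higher in DIFF in members and 2.51 higher in translation factors. It was 5.38 higher in mitochondrial ribosomal proteins, 5.07 in ribosome biogenesis and 3.17 over all promoters. In that order, every DIFF library was above every PROLIF library for 54.2%, 40%, 34.6%, 40.6% and 26.6% of genes. No test compared the lists with each other.

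**Figure D5:**
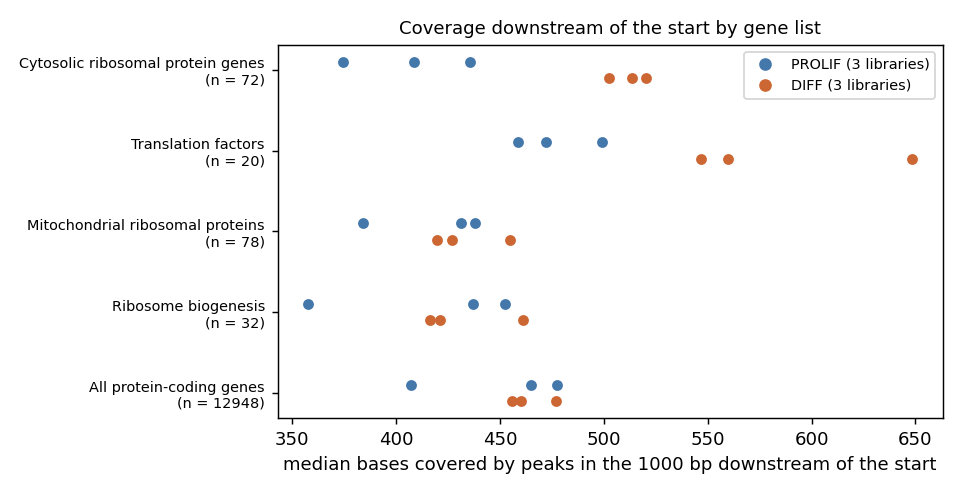
Median number of bases covered by peaks in the 1000 bp downstream of the chosen start, by gene list. Each point is 1 library, PROLIF blue and DIFF orange. The colours are apart for the cytosolic ribosomal protein genes and the translation factors and overlap for the other 3 lists.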

How the data were processed

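ATAC-seq libraries of Srr2del/del cultures, 3 PROLIF and 3 DIFF, took their state and number from the labels. Per the study's methods and the labels, the authors trimmed reads with Cutadapt and Trimmomatic, mapped them to GRCm38 (mm10) with Bowtie2, marked duplicates and ran MACS2 on every library for narrow peaks at a false discovery rate of 0.05. Versions, read extension and any shift for the transposase are not given in the sources used here and can move peak edges. Each deposited list gives a score, which was not used. The authors also deposited a fold enrichment per peak, meaning the ratio of its pileup to local background. The −log10 p and −log10 q deposited by the authors ranked and filtered peaks. Read totals were not analysed here, and counts of reads per peak were not among the values used, so the number of libraries limits the precision. Pileups were solved from fold and p under the caller's Poisson model.

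For each gene the peak with the highest −log10 p within 1 kb of any GENCODE M21 transcript start was taken. Width (log2), fold (log2, quantile scaled), reach (bp) and the log2 odds of the percentile were fitted with limma 3.58.1 in R 4.3.3, with a trended variance and Benjamini-Hochberg adjustment over all 12948 promoters with a peak in all 6 libraries. Scripts were tested on simulated data. Lists were described by counts and medians. The members, lists and named genes were chosen with earlier results of these data known. Named genes were the 5 members with the highest and lowest percentile, width and change in width, fold and downstream reach, members past the threshold, and members picked by role. Single results of some members are not reported here, and the counts and medians include them. The reach and the covered bases were added after the widths were seen. Alternatives were stricter q, shorter lists, windows of 500 bp and 3 kb, other scalings, chromosomes 1, 10 and 12 left out, each library left out and a replicate block. The study profiled both states on the same cultures, but no label ties a number to a culture, so the numbers were treated as unpaired and the block as an alternative. Across genes, deviations from each state's mean were correlated between libraries of the 2 states. Same-numbered libraries had correlations of 0.0341 to 0.0581 for width and 0.0160 to 0.122 for fold. Differently numbered libraries had -0.0422 to -0.00144 for width and -0.109 to 0.0279 for fold. For width every same-numbered pair was thus above every other pair, and for fold the ranges overlapped. These values do not settle whether a number marks a culture. Python 3.11.15, pandas 2.3.3, pysam 0.24.0 and matplotlib 3.10.9 were used. The study describes its ATAC-seq replicates as biologically independent, and p-values measure the spread between these libraries.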

Additional observations from a re-analysis of the deposited data

How the results depend on the processing

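The 72 members kept promoter peaks in all libraries under every alternative but 1, the strongest 20000 peaks of each list, where 50 did and 1, Rpl12, had a peak in one state only. Median width and downstream reach stayed larger in DIFF under every alternative run. Leaving out each library gave 69.9 to 127.4 bp for width, 80.6 to 114.3 bp for downstream reach, 3.70 to 5.79 for the percentile and -5.25 to 16.8 bp for upstream reach, negative without PROLIF replicate 4 (-0.333 bp) and without DIFF replicate 4. Upstream reach also turned to -7.67 bp with the strongest 20000 peaks. For fold, the members called as higher numbered 1 at a q of 0.001, 1 with peaks within 3 kb, 1 with median centring, 17 on the log2 odds of the percentile, 15 on those odds with lists of equal length and 2 with the replicate block, and 0 to 1 with a library left out. For downstream reach they numbered 3 with peaks within 3 kb and 0 with the strongest 20000 peaks, with bases covered by any peak and with the replicate block. With a library left out, 0 to 3 were higher and 0 to 1 lower, and for upstream reach 0 to 1 were higher. The 3 higher, Rpl4 and Rps19 among them, came without PROLIF replicate 1, and none was higher without PROLIF replicate 2, DIFF replicate 1 or DIFF replicate 4. The 1 lower was Rpl41, without DIFF replicate 4, which also gave the 1 for upstream reach. For fold the 1 was Rps26, without PROLIF replicate 1. Counts of members higher in every DIFF library, with a library left out, were 20 to 32 for width (32 without DIFF replicate 1), against 11.3% to 20.1% of all promoters, 26 to 33 downstream, against 11.4% to 18.5%, 6 to 13 upstream (13 without PROLIF replicate 1), against 11.1% to 17.4%, and 39 to 56 for the percentile (56 without PROLIF replicate 1), against 27.9% to 48.8%, a looser condition with fewer libraries. The cause of these changes was not tested. Over all promoters the calls ranged, across alternatives, from 0 to 13 higher and 0 to 19 lower for width, 20 to 1073 and 45 to 358 for fold and its percentile, 23 to 125 and 12 to 110 for downstream reach and 16 to 134 and 9 to 112 for upstream reach. Apart from the log2 odds, the counts of members called by limma under single alternatives stand without the matching share of all promoters. They are not read as results about the members. The replicate block changed no other call of members.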

Other observations

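Of 12 ribosomal protein genes and paralogs whose symbols fall outside the rule, such as Rack1, Fau and Rpl22l1, 8 had a promoter peak in all 6 libraries. Their median number of bases covered in the 1000 bp downstream of the start was 456.5, 385 and 348 in PROLIF replicates 1, 2 and 4 and 473.5, 414.5 and 477 in DIFF, with overlap between the states. In 1 of the 8 every DIFF library was higher than every PROLIF library, against 7.94% of all promoters. Their median width did not overlap, at 770 to 899 bp in PROLIF and 923.5 to 1021.5 bp in DIFF. By the strongest peak, 2 of the 8, or 25%, reached further downstream in every DIFF library, against 8.99% of all promoters. For width this held in 1, or 12.5%, against 9.42%. Rpl34-ps1, a processed pseudogene with a peak near its start in all 6 libraries, lies 7362 bp from the nearest start of a protein-coding gene.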
